A study of Mus musculus with 8 samples.

Results

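Leukocyte integrins are paired surface receptors, 1 alpha and 1 beta subunit each, that let T cells stop on vessel walls, enter tissues and hold on to other cells. The genes followed here were picked by symbol in the deposited count table and are 9 of 42748 listed: the integrin alpha subunits *Itgae*, *Itga4*, *Itgal* and *Itga6*, the beta subunits *Itgb7*, *Itgb1*, *Itgb2* and *Itgb3*, and *Cd44*, a receptor for the matrix sugar hyaluronan. The beta 7 chain pairs with alpha E to bind E-cadherin on epithelium or with alpha 4 to bind MAdCAM-1 on gut vessels. Alpha 4 and alpha 6 also pair with beta 1, for VCAM-1 and laminin, alpha L pairs with beta 2 as LFA-1, and beta 3 pairs with alpha V. In regulatory T (Treg) cells, CD103 (alpha E) and high CD44 mark the effector state.

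Bulk RNA was sequenced from CD4+ CD25+ cells sorted from spleen pooled with lymph nodes, in female mice that were Ripk1 fl/fl and Foxp3 Cre/wt. There were 4 YFP+ and 4 YFP- libraries, which carry the numbers 21, 46, 48 and 53. YFP+ cells express the Cre-YFP knock-in at *Foxp3*, delete *Ripk1* and are labelled Ripk1 -/-. YFP- Treg cells use the other X chromosome of such females and keep the floxed alleles intact. The YFP- fraction is labelled Ripk1+/+ and was sorted on CD4, CD25 and YFP, not on Foxp3 itself. All mice were Ripk1 fl/fl, so the knock-in and the loss of Ripk1 cannot be told apart, and neither the age of the mice nor whether each library is a separate mouse is given in the sources used here. P-values therefore measure the spread between these libraries.

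The comparison asked how gene expression differs between the Ripk1-deficient and the Ripk1-expressing cells. *Ripk1* itself was at 15.2, 28.7, 19.9 and 26.1 CPM for YFP+ numbers 21, 46, 48 and 53, against 20.5, 44.3, 29.5 and 23.2 CPM for the same YFP- numbers. Its groups overlapped (log2 fold change -0.38, standard error 0.39, adjusted p = 0.713 in edgeR). It averaged 22.5 ± 6.09 CPM in YFP+ and 29.4 ± 10.6 CPM in YFP- libraries (SD, n = 4 each), where CPM is the count scaled by the TMM library size. A count over the whole gene does not show a missing exon, and *Ripk1* overlaps *Serpinb6a* on the opposite strand. Total counts were 29719251 to 55371610 in YFP+ and 43737313 to 70782679 in YFP- libraries. The YFP+ library 21 stood apart, with 9571 genes at 10 or more counts against 13047 to 16558 in the other 7, so results are also given without it. The T cell genes *Cd3e* and *Il2ra* were at 434 to 1350 and 926 to 1280 CPM in YFP+ libraries and at 728 to 928 and 1150 to 1310 CPM in YFP- libraries. *Cd4* was at 84.4 CPM in the YFP+ library 21 and 410 to 599 CPM in the other YFP+ libraries. Its YFP- range was 372 to 469 CPM. *Cd3d* went the other way in library 21, at 1610 CPM beside 576 to 771 CPM in the other YFP+ libraries. Its YFP- range was 457 to 629 CPM. *Foxp3*, the defining Treg gene, is listed at 0 in all 8 libraries, so it could not be used to check the sort. Of 12 T and Treg cell markers 11 were tested, 0 rose and 2 fell (*Ctla4* by 1.26 and *Nrp1* by 1.48 on the log2 scale, adjusted p = 0.0373 and 0.0328). Over all tested genes, 0.0332% were called higher and 0.836% lower. Summed B cell markers were 167 to 2420 CPM across YFP+ and 93.8 to 121 CPM across YFP- libraries.

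None of the 9 members passed the test over all 8 libraries (edgeR's quasi-likelihood test, Benjamini-Hochberg adjusted p below 0.05 over 15063 genes), where 0.836% of all tested genes were called lower and 0.0332% higher (0.87% in either direction). At an unadjusted p below 0.05, *Itgae* was the only one, lower, beside 5.35% of all genes. Without the YFP+ library 21, *Itgae* fell and the other 8 members did not pass, against 3.97% of all genes called lower and 2.68% higher. Of the members, 7 had a negative and 2 a positive log2 fold change, with a median of -0.16 beside -0.02 over all genes tested. Without library 21 the median was -0.17, beside -0.01 over all genes.

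*Itgae*, the alpha E chain, stood far lower in YFP+ cells. It measured 0.758, 9.73, 11.2 and 14.1 CPM across YFP+ libraries 21, 46, 48 and 53, against 72.9, 91.2, 142 and 95.9 CPM across the YFP- libraries of the same numbers. The groups were separated by a wide gap, with all YFP+ values on the low side. The means were 8.94 ± 5.75 CPM in YFP+ and 101 ± 29.4 CPM in YFP- libraries (SD, n = 4 each). The log2 fold change was -3.49 (standard error 0.78, 95% interval -5.27 to -1.70, adjusted p = 0.114 in edgeR). That corresponds to an 11.2-fold lower level, with an interval of 3.25- to 38.6-fold. Without the YFP+ library 21 the log2 fold change was -3.11 (standard error 0.28, adjusted p = 0.00545), an 8.65-fold fall that the other 3 libraries shared closely, at 9.68%, 11.1% and 14.0% of the YFP- mean. With the library number as a block the adjusted p of *Itgae* was 0.376, and 0.113 with the block and both libraries of number 21 left out (log2 fold changes -3.93 and -3.22), so that call was lost. Without the block the same 6 libraries gave -3.23 (adjusted p = 0.0205). In bulk RNA, fewer cells of a type and less RNA per cell cannot be told apart. The gene lies on chromosome 11 of GRCm38 from 73090583 to 73147446 on the plus strand, and its exons do not overlap another annotated gene. *Haspin*, a kinase gene inside one of its introns on the opposite strand, is listed at 0 counts.

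**Figure D1:**
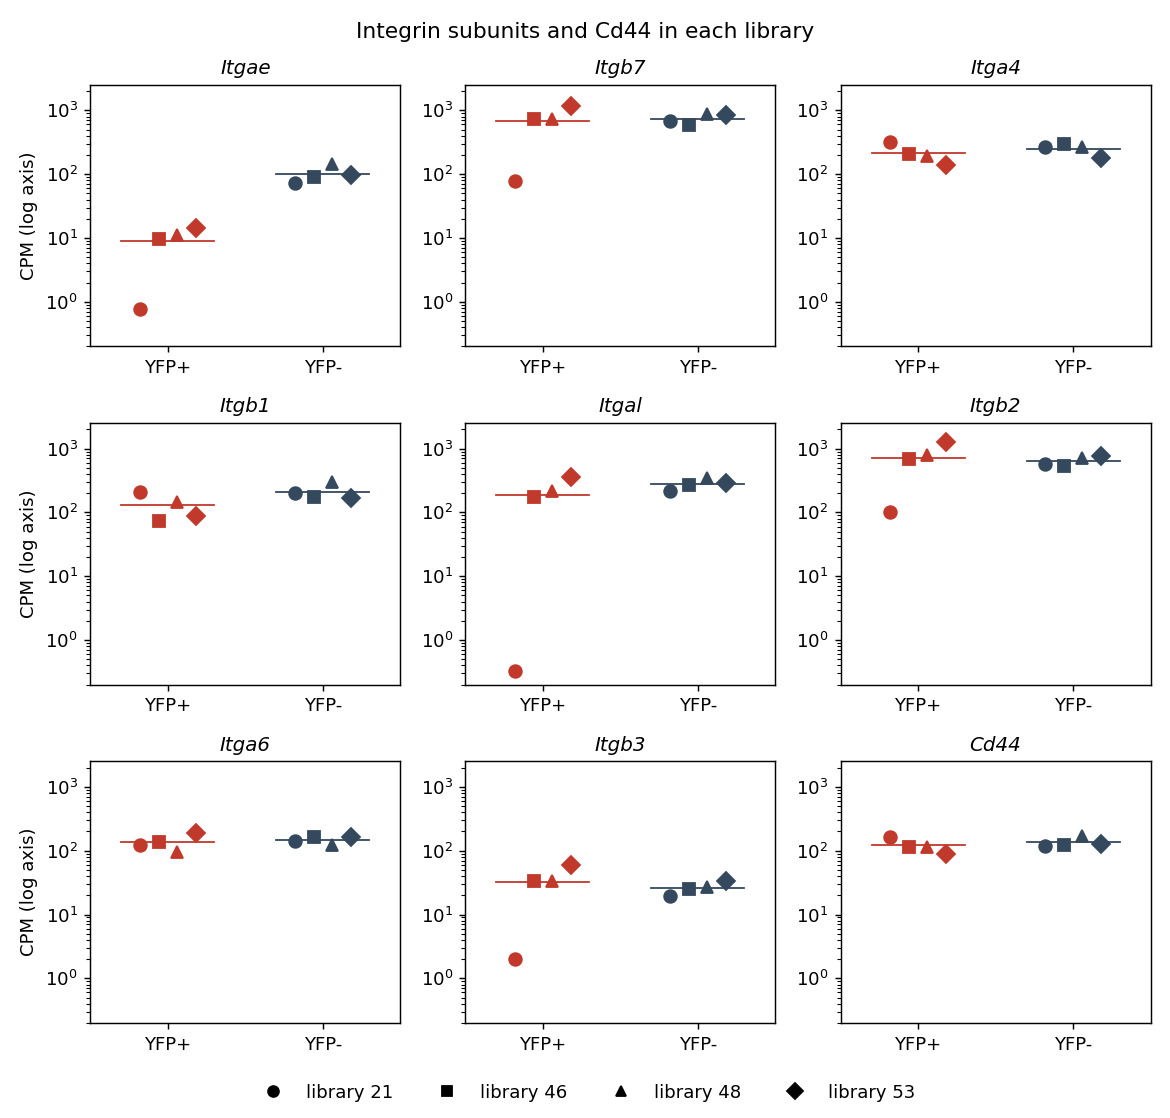
CPM of each of the 9 members (log axis) in the 4 YFP+ libraries (red, left) and the 4 YFP- libraries (dark, right), with marker shape for the library number and a line at each group mean. *Itgae* separates the groups in every library (0.758 to 14.1 against 72.9 to 142 CPM), while *Itgal*, *Itgb7*, *Itgb2* and *Itgb3* have 1 low point, the YFP+ library 21.

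Across all 8 libraries *Itgae* was the 1 member of 9 whose groups did not overlap in the lower direction, beside 10.6% of all tested genes, and 0 of 9 did so in the higher direction, beside 7.83%. Leaving out the YFP+ library 21 gave 3 members wholly below the YFP- libraries (*Itgae*, *Itgb1* and *Cd44*; 13.7% of all genes) and 1 wholly above (*Itgb3*; 12.5% of all genes). These are counts over 9 genes, and apart from *Itgae* none of these had an adjusted p below 0.05.

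*Itgb7*, the beta chain that pairs with alpha E, did not follow it down. It was among the most abundant members, at 78.6, 740, 727 and 1160 CPM across YFP+ libraries 21, 46, 48 and 53 and at 673, 587, 866 and 835 CPM across the YFP- libraries. The YFP+ libraries 46 and 48 lay within the YFP- range, library 53 above it and library 21 far below it. The log2 fold change was -0.13 (standard error 0.63, 95% interval -1.58 to 1.32, adjusted p = 0.950), and 0.24 without library 21 (standard error 0.21, interval -0.25 to 0.72, adjusted p = 0.540). The second interval covers small changes in either direction. *Itgb7* is on chromosome 15 from 102215995 to 102231944, on the minus strand.

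*Itgb1*, the beta chain that takes the place of beta 7 in the VCAM-1 receptor, was lower in 3 of the 4 YFP+ libraries. It measured 212, 73.3, 146 and 89.4 CPM across YFP+ libraries 21, 46, 48 and 53, against 200, 174, 304 and 171 CPM across the YFP- libraries. Library 21 lay within the YFP- range and the other 3 YFP+ libraries lay below all of it. The log2 fold change was -0.71 over all libraries (standard error 0.37, interval -1.57 to 0.15, adjusted p = 0.468) and -1.05 without library 21 (standard error 0.30, interval -1.76 to -0.33, adjusted p = 0.0862), which did not pass in edgeR. *Itgb1* passed where library 21 was left out and DESeq2 was used (-1.04, adjusted p = 0.0103), or where library 48 was left out as well (-1.39, adjusted p = 0.0442 in edgeR). It lies on chromosome 8 from 128685654 to 128733200.

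The bases just upstream of the start of *Itgb7* and of *Itgb1* are shown because the encoded chains are alternative partners of alpha 4 and both genes have an entry in the promoter table. The sequences are RefSeq's, on GRCm38.p6, in a table that matched 4 of the 9 members, and are cut at the GENCODE gene start. Capitals mark the GC box GGGCGG, the ETS core AGGAAG and the RUNX core TGTGGT, searched on both strands and matches did not overlap each other.
Itgb7, chr15:102231945-102232185, minus strand: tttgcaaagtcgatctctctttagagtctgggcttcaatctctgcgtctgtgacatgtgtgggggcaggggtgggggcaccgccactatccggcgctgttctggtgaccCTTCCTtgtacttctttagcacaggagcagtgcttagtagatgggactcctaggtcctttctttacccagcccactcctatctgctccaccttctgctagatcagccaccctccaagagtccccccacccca
Itgb1, chr8:128685404-128685653, plus strand: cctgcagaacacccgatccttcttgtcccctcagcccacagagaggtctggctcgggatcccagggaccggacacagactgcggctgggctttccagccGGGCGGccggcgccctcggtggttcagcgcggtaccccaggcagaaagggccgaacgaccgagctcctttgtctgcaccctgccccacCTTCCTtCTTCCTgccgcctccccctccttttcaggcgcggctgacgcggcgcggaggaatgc

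The *Itgb7* stretch held 1 ETS core and no match to the other 2 motifs in 241 bases. The *Itgb1* stretch held 1 GC box and 2 ETS cores in 250 bases. Among 32851 promoters, 250 upstream bases held a GC box in 32.7%, an ETS core in 29.5% and a RUNX core in 14.0%, so each motif found is a common one. The stretches differed in CpG content, with 5 CpG in the *Itgb7* bases and 21 in the *Itgb1* bases, against a median of 6 over all promoters. A match is a description of the letters, and nothing measured here bears on binding.

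*Itga4*, the alpha chain shared by both receptors gave no call. It measured 317, 208, 193 and 140 CPM across YFP+ libraries 21, 46, 48 and 53 and 262, 293, 271 and 182 CPM across the YFP- libraries. The groups overlapped, and library 21 was the highest of all 8. Its log2 fold change was -0.23 (standard error 0.28, interval -0.88 to 0.41, adjusted p = 0.763), and -0.49 without library 21 (adjusted p = 0.203). *Itga4* lies on chromosome 2 from 79255426 to 79333123, and 81.5% of its exon bases are free of the opposite-strand gene *Cerkl*, which had 6401 counts in all; whether strand was used in counting is not stated.

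LFA-1, the integrin that holds T cells to ICAM-1 on antigen-presenting cells, gave no call in either subunit. *Itgal* measured 0.332, 174, 218 and 362 CPM across YFP+ libraries 21, 46, 48 and 53, against 220, 267, 350 and 286 CPM across the YFP- libraries. *Itgb2* measured 100, 697, 788 and 1270 CPM in the same YFP+ libraries and 572, 527, 708 and 771 CPM across the YFP- libraries. Both were lowest in the YFP+ library 21 and highest in the YFP+ library 53. In library 21 *Itgal* had 7 counts, where the other 7 libraries had at least 7823. The log2 fold changes were -0.57 for *Itgal* (standard error 1.19, interval -3.31 to 2.16, adjusted p = 0.877) and 0.15 for *Itgb2* (standard error 0.60, interval -1.23 to 1.53, adjusted p = 0.940). Without library 21 they were -0.17 (interval -0.80 to 0.46, adjusted p = 0.748) and 0.51 (interval -0.04 to 1.05, adjusted p = 0.228). *Itgb2* is also made by B cells and myeloid cells. Summed B cell markers were 787, 620, 2420 and 167 CPM in YFP+ libraries 21, 46, 48 and 53, and summed macrophage and dendritic cell markers 62.4, 65, 456 and 40.2 CPM. Their part in the *Itgb2* values was not tested. The genes lie on chromosomes 7 (*Itgal*, from 127296260 to 127335138) and 10 (*Itgb2*, from 77530252 to 77565708).

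*Itga6*, the alpha chain of the laminin receptor, showed no separation. Its YFP+ libraries 21, 46, 48 and 53 held 124, 139, 94.9 and 186 CPM, and its YFP- libraries 142, 164, 123 and 163 CPM. The YFP+ values reached both below and above all YFP- values. Its log2 fold change was -0.13 (standard error 0.24, interval -0.68 to 0.43, adjusted p = 0.868). The gene is on chromosome 2 from 71745616 to 71858416.

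*Itgb3*, the beta chain of the vitronectin receptor and of the platelet fibrinogen receptor, was the least abundant member in YFP- cells. It measured 2.04, 33.9, 33.8 and 60.4 CPM across YFP+ libraries 21, 46, 48 and 53, against 19.4, 24.8, 27.1 and 33.5 CPM across the YFP- libraries. Apart from library 21, each YFP+ library was above each YFP- library, narrowly so at the closest pair. Its log2 fold change was 0.31 (standard error 0.79, interval -1.49 to 2.12, adjusted p = 0.900), and 0.70 without library 21 (standard error 0.28, interval 0.04 to 1.35, adjusted p = 0.176). Summed platelet markers were 2.13 to 50.3 CPM across YFP+ and 1.54 to 3.64 CPM across YFP- libraries, with the 50.3 CPM in library 48, and their part in the *Itgb3* values was not tested. It lies on chromosome 11 from 104608000 to 104670476.

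*Cd44*, whose protein is high on effector Treg cells, differed little in RNA. It measured 164, 114, 115 and 90.1 CPM across YFP+ libraries 21, 46, 48 and 53, against 120, 121, 171 and 128 CPM across the YFP- libraries. Library 21 was within the YFP- range, and the other 3 YFP+ libraries were below it by a narrow margin. The log2 fold change was -0.16 (standard error 0.24, interval -0.71 to 0.40, adjusted p = 0.823), and -0.34 without library 21 (standard error 0.17, interval -0.74 to 0.05, adjusted p = 0.254). Counts per gene do not separate the splice forms of *Cd44*, which lies on chromosome 2 from 102811141 to 102901665.

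**Figure D2:**
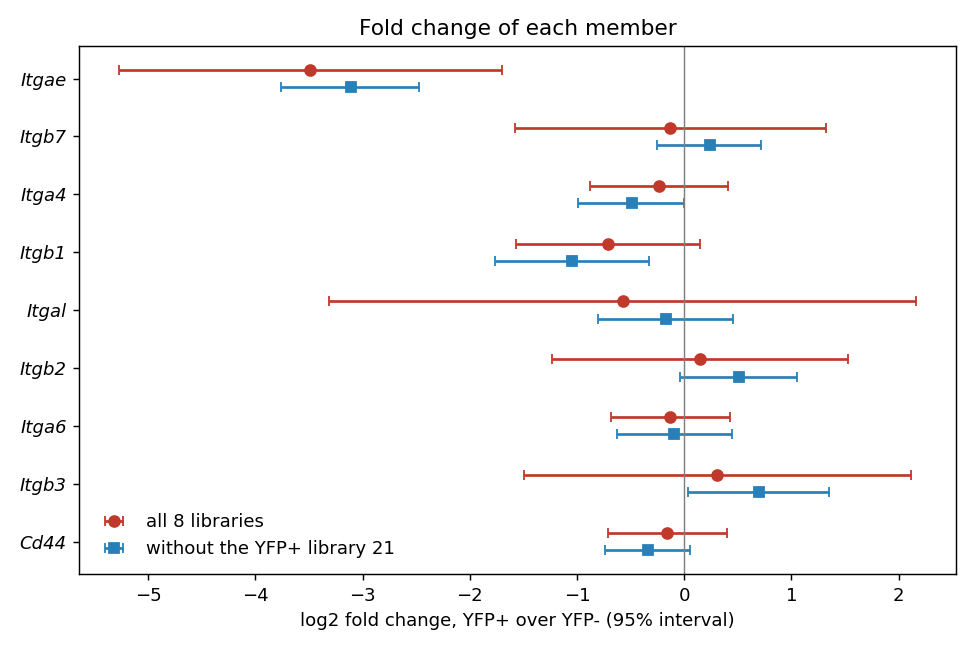
Log2 fold change of each member, YFP+ over YFP-, over all 8 libraries (red circles) and without the YFP+ library 21 (blue squares); bars are 95% intervals from edgeR's quasi-likelihood fit. *Itgae* is the one member whose intervals exclude 0 in both fits (-5.27 to -1.70 and -3.76 to -2.47), and the intervals of *Itgal*, *Itgb7*, *Itgb2* and *Itgb3* narrow once library 21 is left out.

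The YFP+ library 21 split the members into separate sets. There *Itgae*, *Itgb7*, *Itgal*, *Itgb2* and *Itgb3* were 5.25- to 525-fold below the lowest of the other 7 libraries, whereas *Itga4*, *Itgb1*, *Itga6* and *Cd44* were at 83.5% to 126% of the YFP- mean. Thus 5 of 9 members were at least 4-fold below every other library, beside 34.2% of all tested genes. Among genes with 100 CPM or more in YFP- libraries it was 4 of 8 members beside 14.5% of genes. This describes 1 library and has no replicate.

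**Figure D3:**
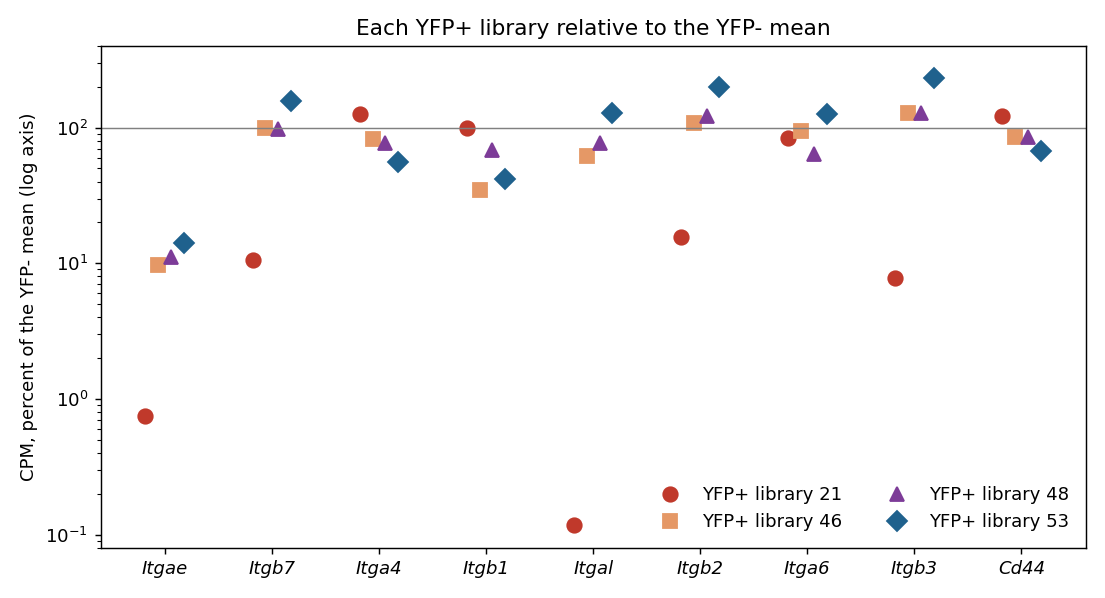
CPM of each member in each YFP+ library as a percent of the YFP- mean (log axis; grey line at 100%). All 4 libraries are at 0.754% to 14.0% for *Itgae*, library 21 (red) is at 0.118% to 15.6% for *Itgal*, *Itgb3*, *Itgb7* and *Itgb2*, and the remaining values lie between 34.5% and 231%.

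Since an integrin needs both subunits, each alpha gene was also set against its beta partner within a library, as the difference of log2(CPM + 1). *Itgae* minus *Itgb7* was -5.50, -6.11, -5.90 and -6.26 in the YFP+ libraries 21, 46, 48 and 53, against -3.19, -2.67, -2.60 and -3.11 in the YFP- libraries. The groups were far apart and library 21 lay close to the other YFP+ libraries, at a mean of -5.94 ± 0.33 in YFP+ and -2.89 ± 0.30 in YFP- libraries (SD, n = 4 each). *Itgae* was at 0.758 CPM in library 21, below the added 1. Its difference there, that closeness and the small SD therefore depend in part on the added 1. Of all other tested genes, 4.47% were likewise lower than *Itgb7* without overlap.

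For LFA-1, *Itgal* minus *Itgb2* was -6.25, -1.99, -1.85 and -1.81 in the YFP+ libraries 21, 46, 48 and 53, against -1.37, -0.98, -1.01 and -1.43 in the YFP- libraries. In library 21 *Itgal* was at 0.332 CPM, also below the added 1, so the value of -6.25 depends on it. All 4 YFP+ libraries were below all YFP- libraries, as were 8.04% of other tested genes set against *Itgb2*. The mean of the YFP+ libraries 46, 48 and 53 was -1.88 ± 0.09 (SD, n = 3) and that of the YFP- libraries -1.20 ± 0.24 (SD, n = 4), a smaller gap than for alpha E.

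The beta partners of alpha 4 moved apart in part of the libraries. *Itgb7* minus *Itgb1* was 3.32, 2.31 and 3.68 in the YFP+ libraries 46, 48 and 53 and -1.42 in library 21, against 1.74, 1.75, 1.51 and 2.28 in the YFP- libraries. Without library 21 the YFP+ libraries were all above the YFP- libraries, but so were 44.9% of other tested genes set against *Itgb1*, so nothing is read from *Itgb7* in this pair. *Itga4* minus *Itgb1*, *Itga4* minus *Itgb7* and *Itga6* minus *Itgb1* overlapped between the groups, at means of 0.78 ± 0.49, -1.20 ± 2.20 and 0.14 ± 0.97 in YFP+ and 0.26 ± 0.39, -1.55 ± 0.50 and -0.48 ± 0.58 in YFP- libraries (SD, n = 4 each).

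**Figure D4:**
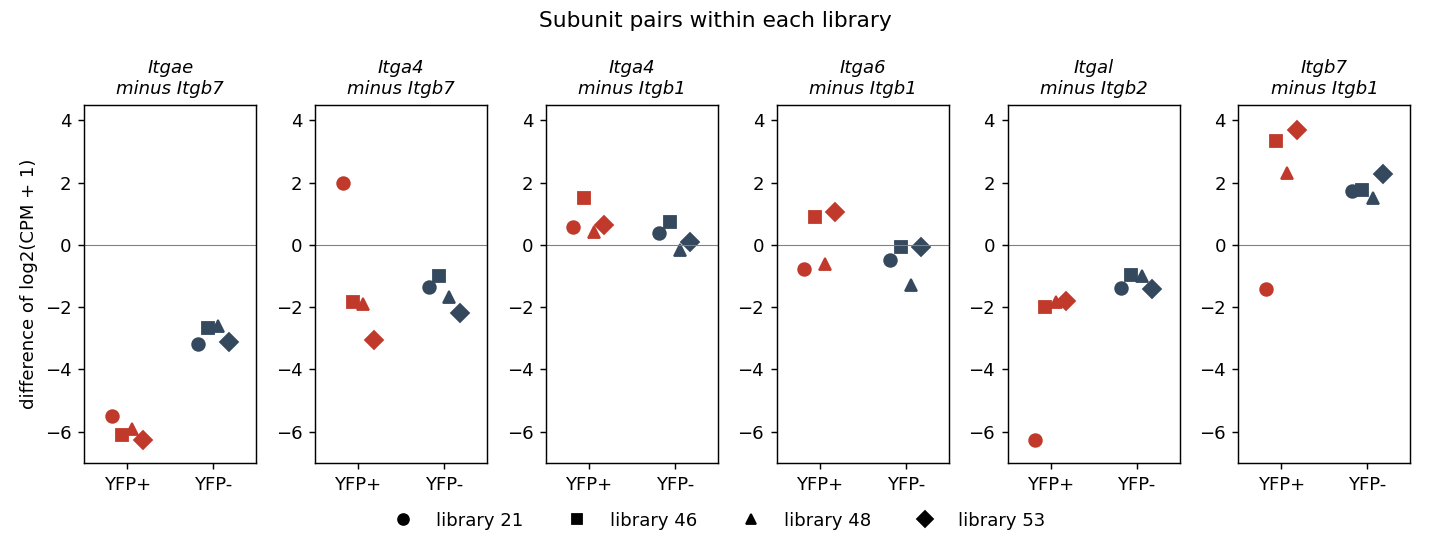
Difference of log2(CPM + 1) between the named genes in each library, YFP+ (red, left) and YFP- (dark, right), with marker shape for the library number. *Itgae* minus *Itgb7* lies between -6.26 and -5.50 in YFP+ and between -3.19 and -2.60 in YFP- libraries, and *Itgal* minus *Itgb2* also does not overlap.

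To compare levels between genes, CPM were divided by the kilobases of annotated exon. On this scale *Itgb7* (267 ± 47.9) and *Itgb2* (211 ± 37.2) led in YFP- libraries, followed by *Itgb1* (52.0 ± 15.3) and *Itgal* (42.7 ± 8.21), all in CPM per kilobase (SD, n = 4). *Itgae* (21.9 ± 6.42), *Cd44* (20 ± 3.61), *Itga4* (18 ± 3.49) and *Itga6* (16.4 ± 2.14) came next, and *Itgb3* (4.44 ± 0.994) was last. The ranges of *Itgb7* and *Itgb2* overlapped between YFP- libraries, but *Itgb7* was above *Itgb2* within each. *Itgb1* and *Itgal* overlapped too, as did the 4 genes from *Itgae* to *Itga6*. *Itgae* was above *Itga6* within each YFP- library, by as little as 15.9 against 15.8 in library 21. In the YFP+ libraries 46, 48 and 53 the order was *Itgb7* (316 ± 88.7), *Itgb2* (301 ± 102), *Itgal* (38.2 ± 15), *Itgb1* (25.2 ± 9.36), *Cd44* (15.7 ± 2.11), *Itga6* (15.5 ± 5.05), *Itga4* (12.9 ± 2.58), *Itgb3* (7.22 ± 2.58) and *Itgae* (2.55 ± 0.489), in CPM per kilobase (SD, n = 3). *Itgae* thus came below *Itgb3* per kilobase in every YFP+ library, library 21 included (0.166 against 0.345), and above it in every YFP- library. With the longest annotated transcript as the length, *Itga6* came at 34.4 CPM per kilobase in YFP- libraries and moved ahead of *Itgae*.

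The genes whose profile over the 8 libraries was nearest to *Itgae* were *Pear1*, *Cxcr3*, *Osbpl3*, *Cd200r1* and *Cbx7*. They had the smallest Euclidean distance of 0.772 to 1.57 between mean-centred log2(CPM + 1) values, among the 9166 tested genes whose mean log2 CPM reached 3. *Pear1*, a receptor first known from platelets, measured 0.190, 3.70, 6.85 and 6.03 CPM across YFP+ libraries 21, 46, 48 and 53, against 54.7, 68.3, 83.8 and 56.3 CPM across the YFP- libraries. *Cxcr3*, the receptor for interferon-induced chemokines, was at 0, 6.79, 8.10 and 4.74 CPM in those YFP+ libraries, against 66.8, 56.5, 108 and 96.3 CPM in those YFP- libraries. The groups did not overlap for any of the 5, which were lower in YFP+ libraries. Choosing them by likeness to *Itgae* in these same libraries largely builds this in, so it is only a description. All 5 genes were close to 0 in library 21, which weighs on the distance. They include the inhibitory receptor gene *Cd200r1* and the Polycomb gene *Cbx7*, at means of 11.4 ± 8.52 and 12.7 ± 9.35 CPM in YFP+ and 69.4 ± 5.55 and 64.8 ± 10.3 CPM in YFP- libraries (SD, n = 4 each).

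Of 18 further integrin subunit genes, 15 were tested and 0 passed over all libraries, with a median log2 fold change of 0.00. *Itgb8*, the beta chain that with alpha V frees active TGF-beta, measured 0.474, 23.6, 31.2 and 10.7 CPM across YFP+ libraries 21, 46, 48 and 53, against 51.1, 73.1, 73.7 and 44.8 CPM across the YFP- libraries. Its groups did not overlap, as for 10.6% of all tested genes in the lower direction, and its adjusted p was 0.444, or 0.0673 without library 21. *Itgav*, the alpha partner of beta 3 and beta 8, had a log2 fold change of 0.00. *Itga3*, a laminin receptor chain, fell without library 21 (log2 fold change -5.43, adjusted p = 0.0440), at a low level of 0.0385 to 0.284 CPM across YFP+ and 0.221 to 5.48 CPM across YFP- libraries. In YFP+ libraries 46, 48 and 53 it was at 0.0668, 0.0385 and 0.0458 CPM, which is 3 counts or fewer. The size of this fall is therefore poorly determined. *Itga3* was the 1 call of 15 tested without library 21, beside 3.97% of all genes called lower there. *Itgam*, the alpha chain of the myeloid partner of beta 2, measured 5.94 to 11 CPM across YFP+ and 1.10 to 3.54 CPM across YFP- libraries (adjusted p = 0.202). Summed macrophage and dendritic cell markers were 40.2 to 456 CPM across YFP+ and 19.5 to 27.8 CPM across YFP- libraries, and their part in this was not tested.

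Inside the cell, talin and kindlin-3 switch integrins to the binding state downstream of the small GTPase Rap1. Of 29 such activation and adaptor genes, 28 were tested and 0 passed over all libraries, with a median log2 fold change of 0.07. Without library 21, 3 of 29 tested rose and 0 fell, beside 2.68% of all genes called higher and 3.97% lower. *Rap1b*, a Rap1 gene, measured 705, 205, 185 and 203 CPM across YFP+ libraries 21, 46, 48 and 53 and 116 to 136 CPM in YFP- libraries. Its log2 fold change was 1.36 (adjusted p = 0.300), and 0.63 without library 21 (adjusted p = 0.0227). Without library 21, *Rasgrp2*, the exchange factor that loads Rap1, rose by 0.99 on the log2 scale (adjusted p = 0.0222). *Cytip*, which restrains cytohesin-1 and LFA-1 adhesion, rose by 0.55 there (adjusted p = 0.0485). *Rap1b* and *Cytip* were above every YFP- library in all 4 YFP+ libraries, and *Rasgrp2* in 3 of them. Of all tested genes, 7.83% lay higher without overlap over all 8 libraries, and 12.5% without library 21. *Tln1* (talin) had a log2 fold change of -0.41, or -0.10 without library 21 (adjusted p = 0.750 and 0.791). For *Fermt3* (kindlin-3) the values were -0.55 and -0.19 (adjusted p = 0.739 and 0.430).

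Genes for integrin ligands ranged widely in level. Of 12 listed, 7 were tested over all libraries and 8 without library 21, and 0 passed in either fit. *Cdh1* and *Madcam1*, which encode E-cadherin and MAdCAM-1, were at or below 0.961 CPM in every library. *Icam2*, a ligand of LFA-1, was at 71.7 to 126 CPM across YFP+ and 53.7 to 70.4 CPM across YFP- libraries without overlap (adjusted p = 0.380). *Lamc1*, a laminin chain, was at 0.521 to 12.7 CPM across YFP+ and 18.6 to 36.6 CPM across YFP- libraries, also without overlap (adjusted p = 0.349). Such a lack of overlap was seen for 7.83% of all tested genes in the higher and 10.6% in the lower direction. *Vcam1* ranged from 0 to 50.6 CPM in YFP+ and from 1.67 to 3.79 CPM in YFP- libraries, and *Icam1* from 0.521 to 64.5 CPM in YFP+ and from 59.3 to 109 CPM in YFP- libraries. Of 11 genes for CD44's anchors to actin and for hyaluronan enzymes, 8 were tested and 0 passed over all libraries. Without library 21, 1 of 8 fell, beside 3.97% of all genes called lower there. This was *Nf2* (merlin), which competes for the CD44 tail (log2 fold change -0.93, adjusted p = 0.0393). Over all libraries *Nf2* was at -0.62 (adjusted p = 0.479). Its YFP+ library 21 held 60.8 CPM, within the YFP- range of 44.7 to 66.1 CPM. *Msn* (moesin), the main anchor, had log2 fold changes of 0.26 and, without library 21, 0.56 (adjusted p = 0.83 and 0.0755).

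Marker genes of other cell types were summed in each library, and the B cell and myeloid sums were higher in each YFP+ library than in any YFP- library. Of 10 B cell markers, 9 were tested and 9 had a positive log2 fold change. Over all libraries 0 passed. Without library 21, 3 of 9 tested passed, beside 2.68% of all genes called higher there. These were *Cd79a*, *Fcer2a* and *Ebf1* (adjusted p = 0.0354, 0.0415 and 0.0485 in edgeR). The defining B cell gene *Ms4a1* is listed at 0 throughout. Of the macrophage and dendritic cell markers, 1 of 9 tested passed without library 21 (*Lyz2*, higher, adjusted p = 0.0483 in edgeR). Summed CD8 T and NK cell markers were 35.8 to 150 CPM across YFP+ and 34.3 to 46.0 CPM across YFP- libraries, and erythroid markers 292 to 5090 CPM across YFP+ and 92.6 to 359 CPM across YFP- libraries. The top of each of these ranges was the YFP+ library 48. Without the YFP+ libraries 21 and 48, the log2 fold change of *Itgae* was -3.08 (adjusted p = 0.0167 in edgeR). The part of other cells' RNA in the values of *Itgae* and the other members was not tested.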

How the data were processed

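The deposited table holds whole-number read counts by Ensembl gene, which the authors did not normalize. The submitters' processing notes name Trim Galore, STAR and mm10. Tool versions, the way reads were counted and any use of strand are facts not given in the sources used here. Columns were matched to libraries by title, with 0 other sample columns. Members were matched by symbol, 1 row each. Members, lists, motifs, tests and alternatives were chosen with earlier results of these data known.

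EdgeR 4.0.16 under R 4.3.3 kept genes by filterByExpr (count 10, total 15), applied TMM and tested YFP+ against YFP- by glmQLFit and glmQLFTest without covariates. Benjamini-Hochberg p-values cover every gene kept, at 0.05. Standard errors were taken from the F statistic, and 95% intervals from its degrees of freedom. Other settings tried were DESeq2 1.42.0, upper-quartile and RLE factors, library size only, other filters, a block on the library number, robust dispersion, and libraries left out. GENCODE M21 (GRCm38) gave coordinates, exon lengths and overlaps, and matched 42548 of 42748 identifiers. A level of 3 counts is 0.0577 to 0.142 CPM across YFP+ and 0.0374 to 0.0620 CPM across YFP- libraries, a limit that covers counting error only. Genes named are the members, *Ripk1*, listed genes past the threshold in either fit (up to 4 a list), abundant markers and the 5 profiles nearest to *Itgae*. *Itgb8*, *Itgam*, *Itgav*, *Tln1*, *Fermt3*, *Msn* and the ligand genes were named for their known roles after their values were seen. So were *Cd3d* and *Cd4*. One listed gene is not reported here.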

Additional observations from a re-analysis of the deposited data

Results flagged for a closer look

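The YFP+ library 21 was far below the other YFP+ libraries for *Itgal* and *Itgae*, by Dixon's test on log2(CPM + 1) within each group. For *Itgal* the gap to the next library was 0.870 of the whole range, at 0.332 CPM beside 174 to 362 CPM. For *Itgae* it was 0.841 of the range, at 0.758 CPM beside 9.73 to 14.1 CPM. The test was run on 18 groups (9 members by 2 fractions), and chance gives a result of this kind in about 1 in 20, or 0.9 of 18.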

How the results depend on the processing

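The alternatives were 17 settings listed at the start, with earlier results of these data known, and 3 added after seeing the new results. Those 3 were DESeq2 without the YFP+ library 21, and both libraries of number 21 left out with and without the block. *Itgae* had a negative log2 fold change throughout (-3.93 to -3.08), with adjusted p from 3.38e-25 to 0.376 in edgeR or DESeq2. The number of members called lower was 0 in the main result and 0 to 1 with any 1 library left out. It was 1 with DESeq2 (*Itgae*, -3.50, adjusted p = 0.000286), without the YFP+ library 21, or without both libraries of number 21 (-3.23, adjusted p = 0.0205), and 2 (*Itgae* and *Itgb1*) without the YFP+ libraries 21 and 48 or in DESeq2 without library 21. No member was called higher in any setting. Over all genes 131 were called; the count was 0 to 1052 with 1 library left out (1052 without the YFP+ library 21, 236 without the YFP+ library 48 and 0 without any 1 of the other 6, where 1130 to 2326 had an unadjusted p under 0.05), 197 by library size only, 1308 in DESeq2 (530 higher, 778 lower), 10 without a filter, 9 with a stricter one, 940 without the YFP+ libraries 21 and 48 and 3175 in DESeq2 without library 21. Library size only moved the median of all genes to -0.28, and the block to -0.32, beside -0.02 in the main result.

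The labels do not say whether equal numbers mark the same mouse. The cut applied to the data was an r above 0.1 in every pair. Same-numbered libraries deviated together at r of 0.0646, 0.133, 0.169 and 0.126 (numbers 21, 46, 48 and 53), so 3 of 4 pairs passed, and 3 of 4 YFP+ libraries correlated best with their own number. The pair that fell short was number 21, whose YFP+ library stood apart, so this check does not settle whether equal numbers are pairs. With the library number as a replicate block 0 genes were called (1440 at an unadjusted p under 0.05), and 0 with the block and without number 21 (3197), where *Itgae* was at -3.93 (adjusted p = 0.376) and -3.22 (adjusted p = 0.113).

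Directions turned for 4 members, none of them called. *Itgb7* was at -0.53 to 0.24 with 1 library left out, 0.35 without libraries 21 and 48, 0.25 in DESeq2 without 21, and 0.20 and, with the block, 0.18 without number 21. *Itgb2* was at -0.05 by library size only, -0.22 with the block and -0.29 to 0.51 with 1 library left out, or 0.61 without libraries 21 and 48. *Itgb3* was at -0.23 with the block and -0.18 to 0.70 with 1 library left out, or 0.84 without libraries 21 and 48. *Itga6* was at -0.33 to 0.01 with 1 library left out and 0.12 without libraries 21 and 48. The causes were not tested. The YFP+ library 21 had the lowest total, at 29719251 counts, and 3 counts are 0.142 CPM there. Whether depth accounts for its low values was not tested.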
